A study of Bos taurus with 8 samples.

Results

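Secreted antagonists of bone morphogenetic proteins (BMPs) and activins were compared between chondrocytes of the superficial zone (SZCs) and of the deep zone (DZCs) of bovine knee cartilage. The group was chosen by gene name and held 10 genes, of which 9 were found by name among the 24596 genes counted. These were *NOG*, *CHRD*, *CHRDL1*, *CHRDL2*, *FST*, *FSTL3*, *TWSG1*, *BMPER* and *VWC2*. *GREM1*, the 10th gene of the group, was matched to no named row and was not analysed here. All cells were wild type, came from calves 1 to 2 weeks old and were untreated primary chondrocytes grown for 3 days in medium with serum. The study describes its replicates as biological duplicates, and each zone had 2 libraries, with superficial and deep slices cut from the same cylinders of cartilage and the slices of each zone pooled by joint. Tissue of the middle zone was discarded, so the comparison is of the outermost cartilage with the deepest.

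BMPs and the related growth and differentiation factors are secreted dimers that bring type I and type II receptors together and so activate SMAD1, SMAD5 and SMAD9. Activins share type II receptors with them but use other type I receptors and activate SMAD2 and SMAD3. The antagonists bind these ligands outside the cell and keep them from their receptors. In the developing limb this restraint shapes joints, and noggin in particular is needed for joints to form. Chordin is a special case, because other secreted proteins hold it on BMPs and proteases of the tolloid family release the BMP by cleaving it.

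The libraries held from 19918970 to 21890549 counts each, and 3 counts, the lowest level treated as detectable, corresponded to between 0.129 and 0.187 CPM (counts relative to a common library total, scaled by the trimmed mean of *M* values, TMM). *COL2A1*, the main cartilage collagen, took between 6.31% and 24.5% of the counts, with the highest share in DZC replicate 1. All 11 chondrocyte markers examined had counts. *PRG4*, which encodes lubricin of the superficial zone, was at 3170 and 2020 CPM in SZC replicates 1 and 2 and at 15.3 and 61.5 CPM in DZC replicates 1 and 2. The levels of the 6 superficial zone markers were all higher in both SZC libraries than in either DZC library. Of all genes tested, 41.5% were separate in either direction. The study reports most of these markers as higher in SZCs from the same libraries, so their separation is no independent check of the labels. Markers of hypertrophic cells differed between the DZC libraries, and not in 1 direction. *COL10A1*, a collagen of these cells, had 0 counts in DZC replicate 1 but 221 in DZC replicate 2, whereas *IHH*, which encodes a signal of cells entering hypertrophy, had 194 and 48. Values without each of these libraries are given below. Low levels of other cell markers were present, with summed levels of 19.0 and 32.1 CPM in SZCs and 6.91 and 15.4 CPM in DZCs for 8 immune markers, of which *MS4A1* was at 0 counts in every library. The 7 endothelial markers summed to between 3.86 and 11.7 CPM and the 3 red blood cell markers, of which *HBB* was at 0 counts in every library, to between 0.454 and 0.732 CPM.

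Of the 9 antagonists, 2 were higher in SZCs, 1 was higher in DZCs and 6 missed the FDR threshold of 0.05 (exact test of edgeR). *BMPER* was 5.44-fold and *TWSG1* 3.93-fold higher in SZCs, whereas *VWC2* was found almost exclusively in DZCs. The same test called 2.93% of the 12857 genes tested, with 2.23% higher in SZCs and 0.7% higher in DZCs. The median log2 fold change of SZCs over DZCs was -0.46 over the 9 antagonists and -0.04 over all genes tested. The SZC and DZC levels did not overlap for 4 of the 9, against 41.5% of all genes tested, so separation of the libraries alone was about as common elsewhere. In these bulk samples, a difference in the share of cells that express a gene cannot be told apart from a difference in the amount of RNA per cell.

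**Figure D1:**
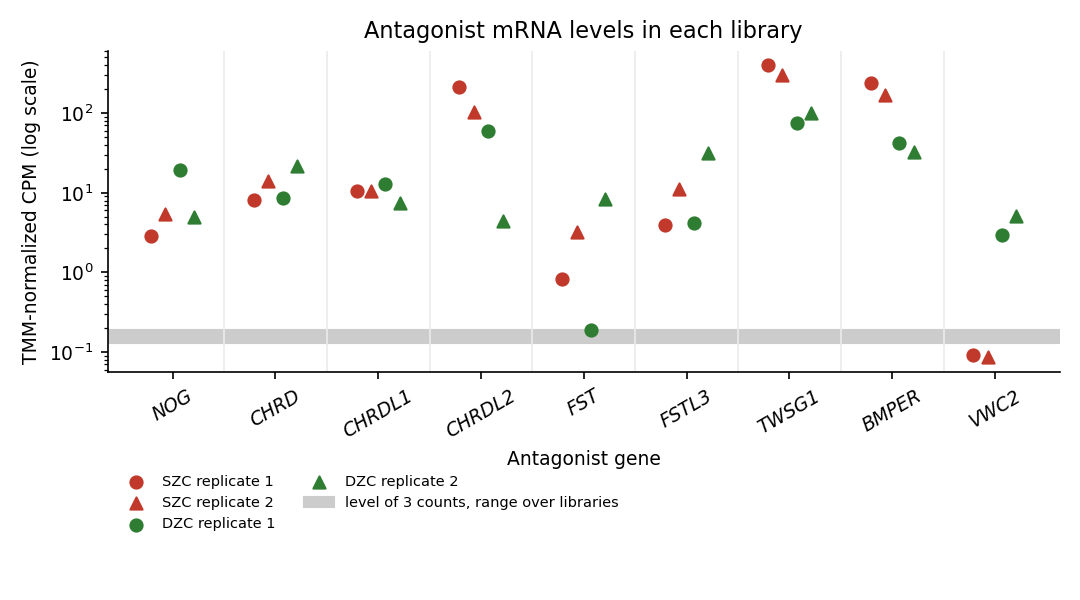
TMM-normalized CPM (log scale) of each antagonist in each of the 4 libraries, with SZC libraries in red, DZC libraries in green, circles for replicate 1 and triangles for replicate 2. The grey band is the level of 3 counts, from 0.129 to 0.187 CPM. *TWSG1*, *BMPER*, *CHRDL2* and *VWC2* have SZC points that lie apart from the DZC points, and the SZC points of *VWC2* lie below the grey band.

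The proteins encoded by *BMPER*, *TWSG1* and *CHRD* act on each other. BMPER (crossveinless 2) and twisted gastrulation (TWSG1) both bind BMPs as well as chordin, and each has been described as lowering or as raising BMP signals according to context. *BMPER* (ENSBTAG00000010866) was at 236 and 170 CPM in SZC replicates 1 and 2 and at 42.2 and 32.5 CPM in DZC replicates 1 and 2. Both SZC libraries lay above both DZC libraries. The mean level was 203 ± 46.2 CPM (n = 2, SD) in SZCs, while in DZCs it was 37.3 ± 6.88 CPM (n = 2, SD). On the log2 scale *BMPER* differed by 2.44 (standard error, SE, 0.38, exact test of edgeR with FDR 4.68e-07). Among the 287 genes called higher in SZCs, *BMPER* ranked 32 by p-value and 167 by size of the change.

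*TWSG1* (ENSBTAG00000001805) was at 398 and 297 CPM in SZC replicates 1 and 2 and at 76.0 and 101 CPM in DZC replicates 1 and 2. Here too the zones were separate. Its mean level was 348 ± 71.0 CPM (n = 2, SD) in SZCs, while in DZCs it was 88.5 ± 17.8 CPM (n = 2, SD). The log2 fold change of *TWSG1* was 1.97 (SE 0.39, exact test of edgeR with FDR 0.000114). It ranked 80 by p-value and 213 by size among the 287 genes. In a later assembly than the one used for counting, the span of *TWSG1* overlaps another protein-coding gene and that of *BMPER* a miRNA gene. That of *CHRDL1*, described below, overlaps a long non-coding RNA gene. The strands of these neighbours were not examined, and reads were counted without regard to strand.

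*CHRD* (ENSBTAG00000002878) encodes chordin itself. It was at 8.09 and 13.9 CPM in SZC replicates 1 and 2 and at 8.52 and 21.6 CPM in DZC replicates 1 and 2, so the zones overlapped. Its log2 fold change was -0.46 (SE 0.60, exact test of edgeR with FDR 0.995). A ratio of counts within a library does not depend on how libraries are scaled. The log2 ratio of *BMPER* to *CHRD* was 4.86 and 3.61 in SZC replicates 1 and 2 and 2.31 and 0.58 in DZC replicates 1 and 2. That of *TWSG1* to *CHRD* was 5.62 and 4.42 in SZCs, against 3.16 and 2.22 in DZCs. Both ratios were higher in each SZC library than in either DZC library, by 2.79 and 2.33 on the log2 scale in the means, with p = 0.333 for each in the exact permutation test (two-sided), the smallest p that 2 libraries against 2 allow. With single libraries left out, the difference ranged from 1.93 to 3.66 for *BMPER* and from 1.73 to 2.93 for *TWSG1*. These ratios were chosen after the values had been seen, and their size also depends on the lengths of the genes, so only their change between libraries can be read.

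*VWC2* (ENSBTAG00000044068) encodes brorin, a secreted BMP antagonist with von Willebrand factor C domains that is best known from the brain. It had 2 counts in each SZC library, 48 in DZC replicate 1 and 114 in DZC replicate 2. This corresponds to 0.0909 and 0.0862 CPM in the SZC libraries, below the level of 3 counts, and to 2.99 and 5.11 CPM in the DZC libraries. Its mean was 0.0885 ± 0.00332 CPM (n = 2, SD) in SZCs, while in DZCs it was 4.05 ± 1.5 CPM (n = 2, SD). With 4 counts in SZCs and 162 in DZCs, the level in DZCs was 47.7 times that in SZCs, with a 95% exact interval of 18.3 to 177 that covers counting error only. The fitted log2 fold change was -5.43 (SE 0.98, exact test of edgeR with FDR 1.80e-06), a value that depends on how such low counts are treated. By size of the fitted change, *VWC2* ranked 4 among the 90 genes called higher in DZCs. Although its level in DZCs was low, both DZC libraries held it. Between the zones, 7 of 11 chondrocyte markers went the same way as *VWC2*, without overlap (41.5% of all genes tested were separate in either direction). Of these, the exact test of edgeR called *CNMD* (FDR 0.000917) and *MATN3* (FDR 0.00212). Within the DZC pair most of the markers went against *VWC2*, which was higher in replicate 2. Only 1 of the 11, *MATN3*, was also higher in DZC replicate 2, whereas *CNMD* was at 7110 and 2240 CPM in DZC replicates 1 and 2. Of the 11 hypertrophic and bone markers, 5 were tested and 1, *IHH*, was called higher in DZCs, against 0.7% of all genes tested. *IHH* was 17.4-fold higher (FDR 0.016 in the same edgeR test), with 12.1 and 2.15 CPM in DZC replicates 1 and 2 and 0.591 and 0.215 CPM in SZCs. No other marker of the 11 was separate with higher levels in DZCs. Between the DZC libraries, 8 of the 11 were higher in replicate 2, as *VWC2* was, whereas *IHH* was lower there. The part of these markers in the *VWC2* values was not tested.

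**Figure D2:**
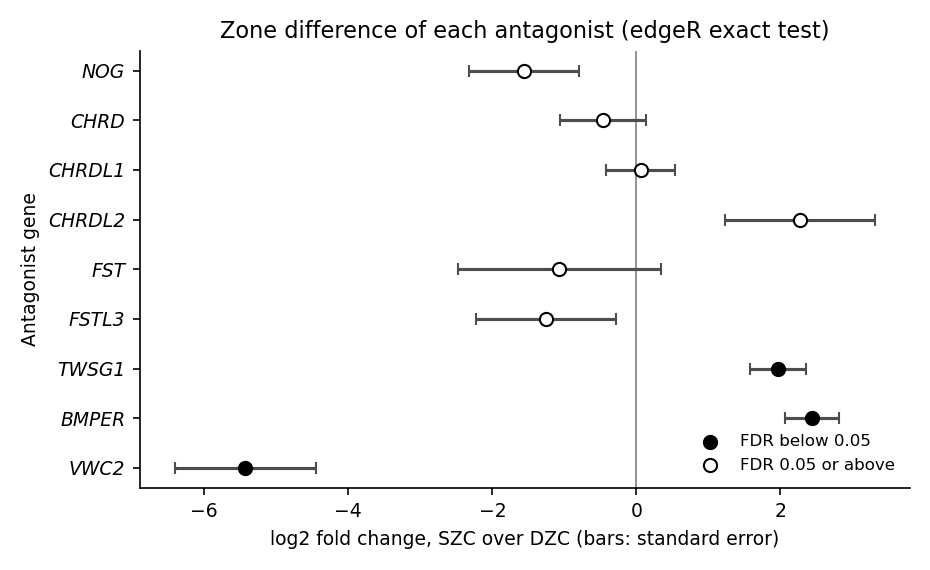
log2 fold change of SZCs over DZCs for each antagonist, with bars for the standard error. Filled points mark FDR below 0.05 in edgeR's exact test. *BMPER* (2.44) and *TWSG1* (1.97) lie to the right and *VWC2* (-5.43) far to the left, and the open points of the other 6 lie between -1.56 and 2.27.

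None of these 3 calls was made by edgeR's quasi-likelihood test fitted on the zones alone, which called 0 of the 12857 genes and had 1126 with unadjusted p below 0.05. In that test *BMPER* and *VWC2* each had an FDR of 0.125 and *TWSG1* one of 0.182 (edgeR), with log2 fold changes that matched those of the exact test to 2 decimals. Unadjusted p-values in the quasi-likelihood test of edgeR were 0.000399 for *BMPER*, 0.000313 for *VWC2* and 0.00132 for *TWSG1*. DESeq2 called all 3, with FDR values of 9.40e-09, 1.62e-05 and 5.46e-06 in the same order. When each library was left out in turn, *BMPER* stayed between 2.18 and 2.66 and *TWSG1* between 1.74 and 2.21 on the log2 scale. Without SZC replicate 1 neither passed in edgeR's exact test on the remaining 3 libraries, at 2.18 for *BMPER* and 1.74 for *TWSG1*. That fit also called fewer genes in all than the fit on all libraries. *VWC2* stayed between -5.76 and -4.97, and it did not pass without SZC replicate 1 or without SZC replicate 2 (exact test of edgeR for both). Each of these fits called fewer genes in all. Of 9 markers of fibroblasts, synovium and tendon, 8 were tested, with *DCN* called higher in SZCs (FDR 0.00804, exact test of edgeR) and none higher in DZCs. Over all genes tested, 2.23% were called higher in SZCs and 0.7% higher in DZCs. By their levels, 4 of the 9 were higher in both SZC libraries than in either DZC library and 1, *MKX*, was higher in both DZC libraries, against 41.5% of all genes tested that were separate in either direction. The summed level of the 9 was 17600 and 25400 CPM in SZCs and 3480 and 13600 CPM in DZCs. Their part in these results was not tested.

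The remaining members of the chordin and noggin families did not pass the test. *CHRDL2* (ENSBTAG00000021306) encodes chordin-like 2, a BMP-binding protein known from cartilage. It was at 210 CPM in SZC replicate 1 and 102 CPM in SZC replicate 2, against 60.5 CPM in DZC replicate 1 and 4.44 CPM in DZC replicate 2. Both SZC libraries were higher than both DZC libraries, but the DZC libraries differed from each other 13.6-fold. The log2 fold change was 2.27 (SE 1.04, exact test of edgeR with FDR 0.514). With libraries paired by replicate number, edgeR's quasi-likelihood test called *CHRDL2*, at 3.11 (FDR 0.0308). The sources do not say that a number marks a shared joint. In the exact test the log2 fold change was 5.14 without DZC replicate 1 and 1.38 without DZC replicate 2. The size of the difference thus rested on which DZC library was kept, while its direction did not.

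*NOG* (ENSBTAG00000040282) encodes noggin, which binds several BMPs and also GDF5. It was at 2.86 and 5.39 CPM in SZC replicates 1 and 2, 19.3 CPM in DZC replicate 1 and 4.98 CPM in DZC replicate 2. DZC replicate 1 stood above the other 3 libraries, which lay between 2.86 and 5.39 CPM. The log2 fold change was -1.56 (SE 0.76, exact test of edgeR with FDR 0.557). Without DZC replicate 2 it was -2.21 (exact test of edgeR with FDR 1.20e-05), and without DZC replicate 1 it was -0.26. *CHRDL1* (ENSBTAG00000004432), which encodes chordin-like 1 (ventroptin), was at 10.5 CPM in both SZC libraries and at 12.8 and 7.49 CPM in DZC replicates 1 and 2. The SZC values lay between the DZC values. Its log2 fold change was 0.06 (SE 0.48, exact test of edgeR with FDR 1) and changed sign to -0.26 without DZC replicate 2. The sign of *CHRD* also changed without that library, to 0.39.

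DZC replicate 1, in which *NOG* and *CHRDL2* were higher than in DZC replicate 2, was also richer in cartilage matrix transcripts. Of the 11 chondrocyte markers, 1 was higher in DZC replicate 2 than in DZC replicate 1, and their summed level was 531000 CPM in DZC replicate 1 and 206000 CPM in DZC replicate 2, against 135000 and 137000 CPM in the SZC libraries. The part of this difference in the levels of *NOG* and *CHRDL2* was not tested.

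**Figure D3:**
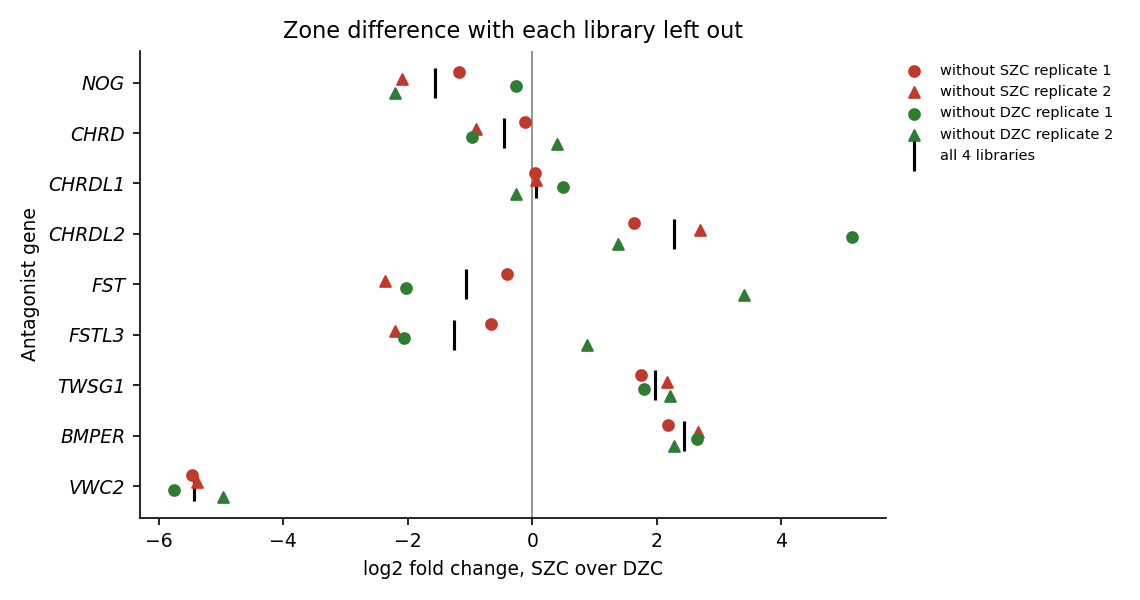
log2 fold change of SZCs over DZCs for each antagonist with all 4 libraries (black bars) and with each library left out (coloured points). *TWSG1*, *BMPER* and *VWC2* stay on the same side of 0 and within a narrow range. *FST*, *FSTL3*, *CHRD* and *CHRDL1* cross 0 when DZC replicate 2 is left out, and *CHRDL2* moves from 2.27 to 5.14 without DZC replicate 1.

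The follistatins bind activins with high affinity, and follistatin also binds some BMPs. *FST* (ENSBTAG00000003329), which encodes follistatin, had 18 and 74 counts in SZC replicates 1 and 2, 3 in DZC replicate 1 and 184 in DZC replicate 2. These counts correspond to 0.818 and 3.19 CPM in SZCs and to 0.187 and 8.25 CPM in DZCs. The SZC values lay between the DZC values, and DZC replicate 1 was at the level of 3 counts. *FSTL3* (ENSBTAG00000003018), which encodes a follistatin-like protein that binds activins and myostatin, was at 3.91 and 11.3 CPM in SZC replicates 1 and 2 and at 4.17 and 31.9 CPM in DZC replicates 1 and 2. For *FSTL3* the zones overlapped as well. The log2 fold changes were -1.07 (SE 1.41, FDR 0.998) for *FST* and -1.25 (SE 0.97, FDR 0.89) for *FSTL3*, by the exact test of edgeR.

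Both follistatin genes had higher levels in replicate 2 than in replicate 1 of either zone. The ratio was 3.90-fold in SZCs and 44.2-fold in DZCs for *FST*, and 2.89-fold in SZCs and 7.65-fold in DZCs for *FSTL3*. *CHRD* went the same way, by 1.72-fold in SZCs and 2.54-fold in DZCs. Across the 12857 genes tested, the median absolute log2 ratio between replicates, computed on CPM + 0.1, was 0.24 in SZCs and 0.56 in DZCs. On that scale *FST* differed by 4.86 between the DZC libraries, and 0.171% of the tested genes differed by more. The value for *CHRDL2* was 3.74, with 1.06% of genes above it, and that for *FSTL3* was 2.91, with 2.68% above it. Between the DZC libraries *TWSG1* differed by 0.41 and *BMPER* by 0.38, below the median of all genes, whereas between the SZC libraries they differed by 0.42 and 0.47, above it. Without DZC replicate 2 the log2 fold change of *FST* turned from -1.07 to 3.40 (exact test of edgeR with FDR 0.0333) and that of *FSTL3* from -1.25 to 0.88. Without DZC replicate 1, that of *FSTL3* was -2.06 (exact test of edgeR with FDR 0.00299) and that of *FST* -2.03 (FDR 0.0605 in the same edgeR test). No direction between the zones can therefore be given for either gene.

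**Figure D4:**
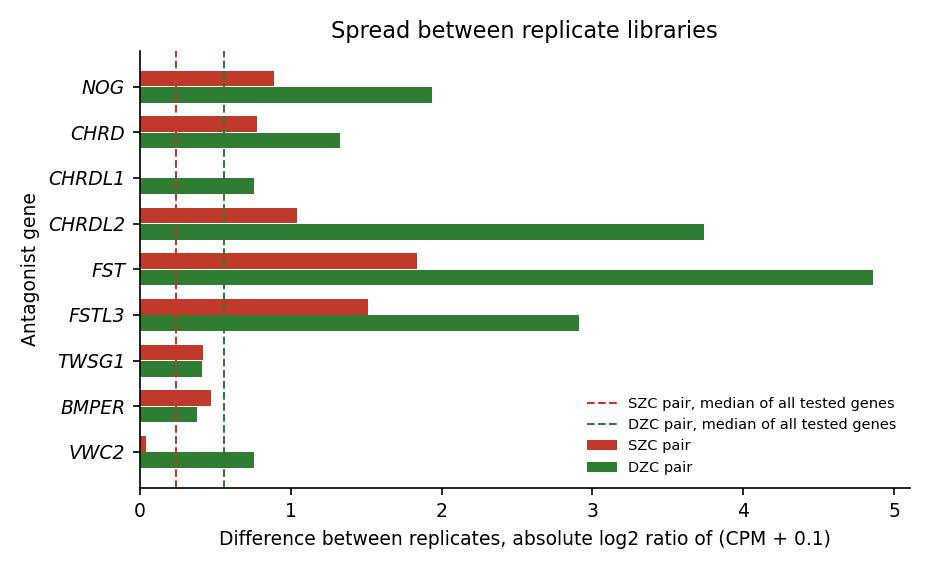
Absolute log2 ratio of (CPM + 0.1) between replicates of each zone, for each antagonist, with SZC pairs in red and DZC pairs in green. Dashed lines mark the medians of all tested genes, 0.24 in SZCs and 0.56 in DZCs. The DZC bars of *FST* (4.86), *CHRDL2* (3.74) and *FSTL3* (2.91) are the longest, and those of *TWSG1* and *BMPER* end before the dashed green line, while their SZC bars pass the dashed red line.

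Markers of several cell types, chondrocytes included, varied between the same libraries as the follistatins. Over all genes tested, 6429 of 12857 were higher in replicate 2 than in replicate 1 of SZCs and 6558 in DZCs. Of the 11 chondrocyte markers, 8 were higher in SZC replicate 2 and 1 in DZC replicate 2. Of the 9 markers of fibroblasts, synovium and tendon, 7 were higher in SZC replicate 2 than in SZC replicate 1 and 8 were higher in DZC replicate 2 than in DZC replicate 1. Of 11 hypertrophic and bone markers, 8 were higher in DZC replicate 2 than in DZC replicate 1, with a summed level of 275 against 35.2 CPM. In the SZC libraries, where *FST* also differed, 3 of the 11 were higher in replicate 2 and their summed levels were 113 and 110 CPM. Most of these sums was *SPP1*, and the other 10 markers summed to 4.95 and 7.45 CPM in SZC replicates 1 and 2 and to 16.3 and 74.1 CPM in DZC replicates 1 and 2. Of 7 endothelial markers, 7 were higher in replicate 2 than in replicate 1 of SZCs and 6 in DZCs, with summed levels of 5.41 and 11.7 CPM in SZCs and 3.86 and 7.98 CPM in DZCs. Of 8 immune markers, 7 were higher in replicate 2 of SZCs and 5 in that of DZCs. The part of these cell markers in the follistatin values was not tested.

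The ligands and other genes on which the antagonists act were taken from a list of 80 further pathway genes, of which 69 had a named row and 51 were tested. Of these 51, 5 were higher in SZCs and none was higher in DZCs by edgeR's exact test at an FDR of 0.05, with a median log2 fold change of 0.22. Over all genes tested, 2.23% were called higher in SZCs and 0.7% higher in DZCs, so a count of 0 among 51 is not unlike the rest. At an unadjusted p below 0.05, 1 was higher in DZCs, and DESeq2 called 5 of the 51, with 0 of them higher in DZCs. The quasi-likelihood test of edgeR called 0, with 8 at an unadjusted p below 0.05. With single libraries left out, the exact test called fewest of these pathway genes without SZC replicate 1 and most without DZC replicate 2. The same held over all genes tested. Among 12 BMP and GDF ligands tested, 4 were higher in SZCs. *GDF5*, a joint-forming ligand that noggin can block, was at 59.4 and 66.7 CPM in SZCs and at 19.3 and 10.5 CPM in DZCs. Its log2 fold change was 2.08 (exact test of edgeR with FDR 0.000283). *GDF6*, a close relative of *GDF5*, had 295 and 240 counts in SZCs and 1 and 16 in DZC replicates 1 and 2, with a fitted log2 fold change of 4.85 (SE 0.84). *GDF10* was at 1260 and 716 CPM in SZCs and at 131 and 19.7 CPM in DZC replicates 1 and 2, with a log2 fold change of 3.71 (SE 0.85), and for both genes the DZC libraries lay far apart. *GDF2* had 42 and 12 counts in SZCs and 0 in either DZC library, and was at least 7.55-fold higher in SZCs when DZCs were set to the level of 3 counts in each library. This bound was 3.22-fold without SZC replicate 1 and 11.9-fold without SZC replicate 2. *BAMBI*, a membrane-bound decoy receptor that blocks BMP and activin signals inside the same cell, was also higher in SZCs, with a log2 fold change of 1.79 (exact test of edgeR with FDR 0.0224). *BMP2* and *BMP4* did not pass, with log2 fold changes of 0.28 (SE 0.34) and 1.51 (SE 1.01). *INHBA* and *INHBB*, which encode activin subunits, were matched to no named row, so the follistatins could not be set against their main ligands.

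Downstream of the ligands, none of 12 receptors and co-receptors, 11 SMADs and SMAD regulators and 8 BMP target genes passed in edgeR's exact test, with 1, 0 and 0 of them at an unadjusted p below 0.05 and 0 called by DESeq2 or the quasi-likelihood test. Over all genes, 2.93% were called and 1169 of 12857 had an unadjusted p below 0.05, so few calls would be found among any genes of this number. Their medians on the log2 scale were 0.17, 0.16 and -0.14. Of the tolloid proteases that cleave chordin, *BMP1* was at 110 and 84.3 CPM in SZCs and at 54.0 and 70.5 CPM in DZCs, which differ by 0.64 on the log2 scale (FDR 0.681). *TLL1* had 59 and 33 counts in the SZC libraries, 7 and 13 in the DZC libraries and a log2 fold change of 1.99 (FDR 0.202, exact test of edgeR for both). The third protease on the list, *TLL2*, had between 5 and 8 counts in each library and was not tested. The SZC levels of *BMP1* and *TLL1* lay above their DZC levels without a call in the test, and 41.5% of all genes tested were separate in either direction.

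**Figure D5:**
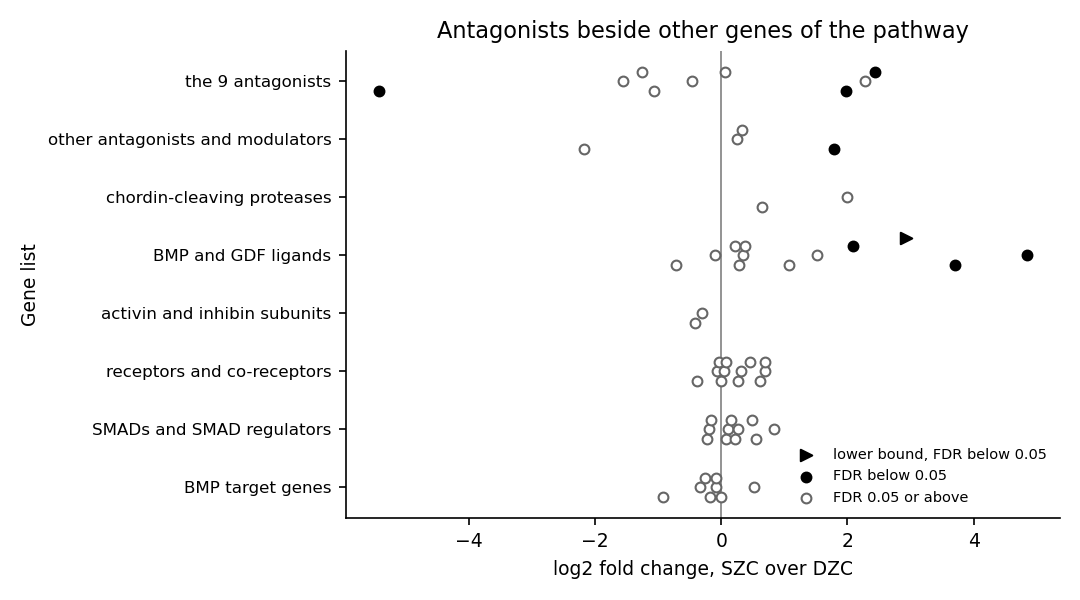
log2 fold change of SZCs over DZCs for the 9 antagonists and for the tested genes of each other pathway list, 1 point per gene, filled where FDR was below 0.05 in edgeR's exact test. The triangle is the lower bound for *GDF2* (2.92), which had 0 counts in DZCs. The antagonists spread from -5.43 to 2.44, while receptors, SMADs and BMP targets lie near 0 with open points.

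Set against *GDF5* within each library, *NOG* was lower in each SZC library than in either DZC library. The log2 ratio of *NOG* to *GDF5* counts was -4.38 and -3.63 in SZC replicates 1 and 2 and 0 and -1.08 in DZC replicates 1 and 2. The mean difference of SZCs from DZCs was -3.46, ranging from -4.00 to -2.92 when single libraries were left out, with p = 0.333 in the exact permutation test (two-sided), the smallest p possible here. The change in *GDF5*, which passed the test on its own, enters this ratio together with that of *NOG*, which did not. The log2 ratio of *CHRDL2* to *GDF5* was 1.82 and 0.62 in SZCs, against 1.65 and -1.24 in DZCs, and the zones overlapped (exact two-sided permutation test, p = 0.667).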

How the data were processed

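The authors aligned single-end reads with STAR 2.5.2b to the Ensembl build UMD 3.1 of the cow genome and counted them per gene without regard to strand, and the deposited counts were not normalized. Their separate table of fold changes and FDR values was not used, except for 8 gene symbols that fill blank names. ATAC-Seq was not analysed here.

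Libraries were grouped by their labels. Following the study's methods, counts were scaled by TMM and tested with the exact test of edgeR (version 4.0.16, R 4.3.3), with Benjamini–Hochberg adjustment over all 12857 genes tested and an FDR threshold of 0.05. The default filter on low counts and the default dispersion estimates of edgeR were chosen here, since the methods name no filter. Standard errors (SE) come from the negative binomial model. The common biological coefficient of variation was 0.361. With 2 libraries per zone, p-values rest on few replicates. Alternatives were the quasi-likelihood test, DESeq2 1.42.0, filtering by over 1 CPM in 2 or more libraries or not at all, scaling by DESeq2 size factors or library totals, the replicate number as a block, and each library left out. In the latter the lone library is assumed to vary like the other zone. The scripts were tested on simulated data.

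Named genes are the antagonists, other pathway genes past the threshold, ligands planned for ratios and markers needed to check the labels. *BMP2* and *BMP4* were planned for ratios to *GREM1* and entered none, since *GREM1* had no named row. *BMP1*, *TLL1*, *TLL2*, *IHH*, *CNMD*, *MATN3*, *DCN*, *MKX*, *SPP1* and the genes of the closing observations were named after their values were seen. The members and lists were chosen with earlier results of these data known. Sequences were not used here.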

Additional observations from a re-analysis of the deposited data

How the results depend on the processing

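Without a block for the replicate number, edgeR's quasi-likelihood test called 0 genes, so 0 higher in SZCs, 0 higher in DZCs, 0 antagonists and 0 other pathway genes (1126 had unadjusted p below 0.05). Its log2 fold changes were -5.43 for *VWC2*, 1.97 for *TWSG1* and 2.44 for *BMPER*. The cause was not tested. Over the 7 alternatives that kept all libraries, *BMPER*, *TWSG1* and *VWC2* each passed in 6, and the 9 antagonists kept their directions. Scaling by library totals gave 44 genes higher in DZCs against 90, and moved the median log2 fold change of all genes by 0.30.

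Same-numbered libraries deviated from their zone means with a correlation of 0.42 across genes, but although both zones were cut from the same cartilage cores, the sources do not say that a number marks a shared joint. With the replicate block, the quasi-likelihood test called 347 genes and 4 antagonists. These were *BMPER* (FDR 0.00622), *VWC2* (FDR 0.00793), *TWSG1* (FDR 0.0263) and, unlike in the exact test, *CHRDL2* at 3.11 (FDR 0.0308, all by edgeR).

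With each library left out, the genes called ranged from 58 to 2725, those higher in SZCs from 52 to 1607, those higher in DZCs from 6 to 1118, the antagonists called from 0 to 6 and other pathway genes called from 1 to 12. The lowest counts came without SZC replicate 1 and the highest without DZC replicate 2. The log2 fold change ranged from -2.21 to -0.26 for *NOG*, -0.97 to 0.39 for *CHRD*, -0.26 to 0.50 for *CHRDL1*, 1.38 to 5.14 for *CHRDL2*, -2.36 to 3.40 for *FST*, -2.20 to 0.88 for *FSTL3*, -5.76 to -4.97 for *VWC2*, 1.74 to 2.21 for *TWSG1* and 2.18 to 2.66 for *BMPER*. Without DZC replicate 2 the signs of *CHRD*, *CHRDL1*, *FST* and *FSTL3* reversed. The ratio of *CHRDL2* to *GDF5*, 1.02 higher in SZCs in the means, was -0.43 without that library. At these depths *VWC2* in SZCs and *FST* in DZC replicate 1 were not above 3 counts.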

Other observations

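Of the other antagonists and modulators on the pathway list, 4 of 10 with a named row were tested. *CER1*, *KCP* and *FSTL5* were at 0 counts in all 4 libraries, which allows levels of up to 0.129 to 0.187 CPM. *SOSTDC1*, which encodes a secreted antagonist of BMPs that also acts on Wnt signals, was counted 3 and 12 times in SZC replicates 1 and 2 and 17 and 43 times in DZC replicates 1 and 2. Its log2 fold change was -2.17 (SE 0.90, exact test of edgeR with FDR 0.303), and its levels did not overlap between the zones. *CRIM1*, a membrane-anchored BMP-binding protein, was at 339 and 312 CPM in SZCs and at 192 and 355 CPM in DZCs. *FSTL1*, which carries a follistatin domain, was at 1500 and 2350 CPM in SZCs and at 1070 and 1980 CPM in DZCs. Both overlapped between the zones, with log2 fold changes of 0.25 (SE 0.43) for *CRIM1* and 0.33 (SE 0.49) for *FSTL1*.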
